A study of Gallus gallus with 10 samples.

Results

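The genes described here encode ligands and receptors that steer growing axons: semaphorins with plexins and neuropilins, ephrins with Eph receptors, Slits with Robo receptors, and netrins with UNC5 receptors. They were picked by gene symbol alone, and 56 of 13051 measured genes matched. Of these, 3 lie on the Z chromosome (EFNA5, SEMA4D and SEMA6A), 52 lie on autosomes and 1, ROBO4, is unplaced. UNC50 matched only by the letters of its symbol. It encodes a Golgi membrane protein outside these families, so 55 genes are guidance genes proper. DCC, a netrin receptor gene, was not analysed here.

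The series holds 10 Affymetrix arrays of total RNA from dissected whole brain of chicken embryos, 5 male and 5 female, with no treatment beyond dissection in the labels. Male birds carry ZZ and females ZW, so a Z-linked guidance gene is present in a different copy number in each sex while its autosomal partners are not. The labels state neither age, nor breed, nor how many embryos made up a sample. Whether samples are separate embryos is not stated either, so a p-value covers only the spread seen between these arrays, part of which may be technical.

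In the developing brain, membrane-bound ephrins signal to Eph receptor kinases at cell contacts and set up topographic maps, such as the projection of retinal axons onto the optic tectum of the chick. Semaphorins act through plexins, with neuropilins as co-receptors for the secreted class 3 proteins. Slits repel axons through Robo receptors, for example at the midline, and netrins repel through UNC5 receptors or attract through DCC. Whole brain RNA mixes neurons, progenitors, glia and vessels, and fewer cells of a type cannot be told apart from less RNA per cell.

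Values are log2(intensity + 16), and differences are male minus female on that scale, which understates the change of dim genes. Background was read from 687 probe sets for viral sequences. A gene counted as above background on an array if its probe set exceeded the 95th percentile of those, which ran from 7.69 to 8.73 over the arrays. The sex labels were borne out by 10 of 17 W-placed genes, in which every female array exceeded every male array. The 8 neuron markers examined, among them SNAP25 and STMN2, were above background on all arrays, as were 6 of 6 markers of radial glia and progenitors, 5 of 5 of vessels, 5 of 5 of meninges and 3 of 3 of choroid plexus. So were 4 of 4 measured genes of the oligodendrocyte lineage and 3 of 3 of blood. Of 6 genes of other tissues 2 were, ACTA1 of muscle and CRYBB1 of the lens. The pituitary genes PRL and POMC were above background on 9 arrays each, CRYAA on 2 and MYLPF on 1. POMC read 12.38 in female replicate 1 and 8.04 to 9.72 on the other arrays, and the cause was not tested. In these lists 0 genes passed the limma threshold between the sexes, where 1.79% of all genes did. An unadjusted p under 0.05, found in 7.62% of all genes, was reached by 1, the choroid plexus gene CLIC6. It differed by -0.78 (SE 0.24, limma adjusted p = 0.294). Its part in the results below was not tested.

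Most guidance genes were detected in embryonic brain, and 0 of the 56 passed the limma threshold (Benjamini-Hochberg adjusted p under 0.05 over all genes), where 1.79% of all genes passed. An unadjusted p under 0.05 was reached by 4 of the 56, against 7.62% of all genes. The lowest adjusted p was 0.131. Above background on all 10 arrays were 43 members (76.8%, against 72.7% of all genes), 11 were above it on some arrays and 2, SEMA3B and EPHA10, on none. The median difference was -0.03 over the 52 autosomal members and -0.03 over all 12229 autosomal genes. The 3 Z members had differences of 0.22, 0.35 and 0.45, around the median of 0.40 of all 606 Z genes. All 3 were above background on all arrays, and the 450 such Z genes had a median of 0.45. Each of the 3 had an unadjusted p under 0.05, as did 56.3% of all Z genes and 312 of the 450. None of the 3 passed after adjustment, while 33.2% of all Z genes did in the male direction. Of the 450, 200 passed in either direction. Among autosomal members 0 passed after adjustment, against 0.147% of autosomal genes, and 1 of 52, SEMA3B, had an unadjusted p under 0.05, against 5.08%.

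**Figure D1:**
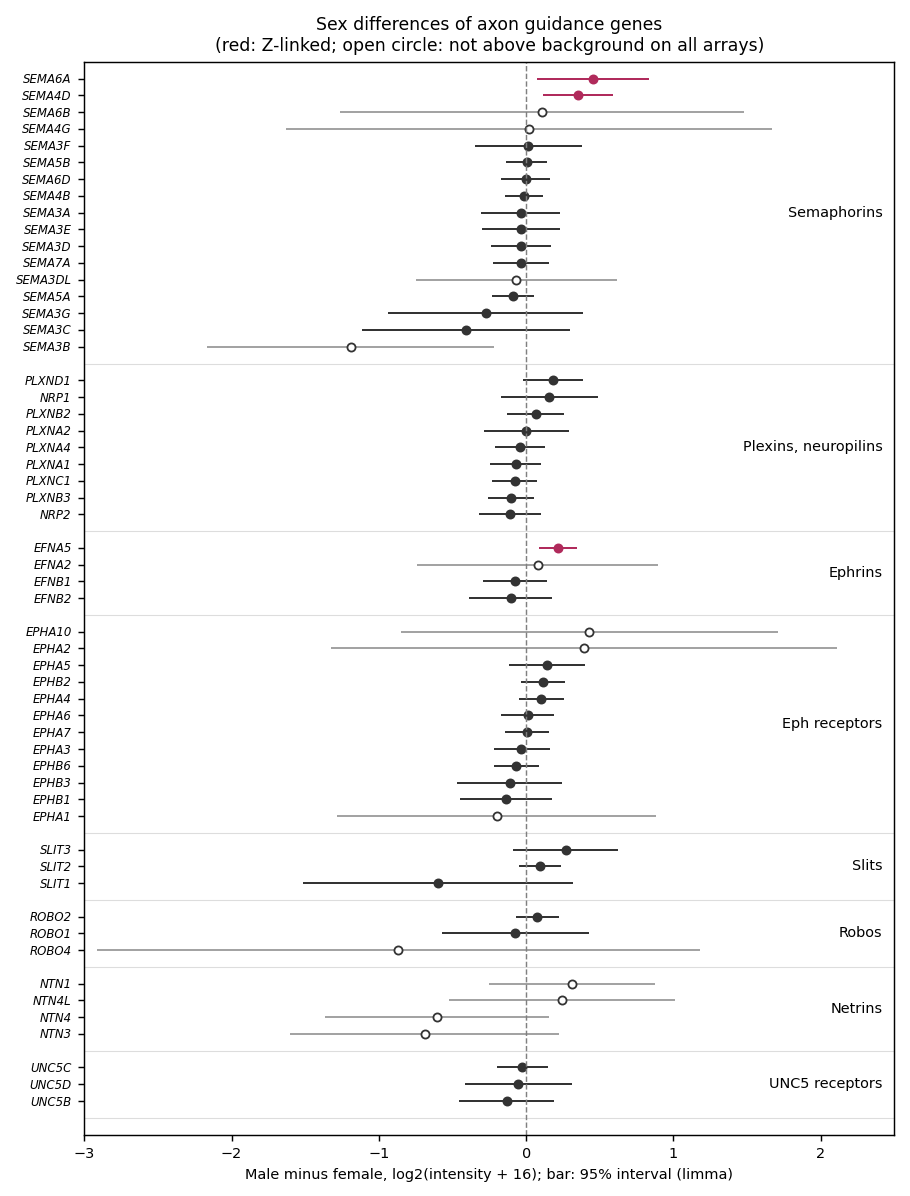
Male minus female difference in log2(intensity + 16) for the 55 guidance genes, grouped by family, with 95% intervals from limma (5 arrays per sex). The 3 Z-linked genes in red have intervals above 0, and wide intervals belong mostly to genes not above background on all arrays (open circles).

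At the brightest probe set of each gene, the Z-linked ephrin gene had the smallest but most regular male excess of the 3. EFNA5 encodes ephrin-A5, a lipid-anchored repellent for EphA-bearing axons that is graded across the chick tectum. Its male arrays read 12.97, 12.99, 13.02, 13.07 and 13.12, and its female arrays 12.78, 12.90, 12.78, 12.80 and 12.84. Every male array lay above every female array. This order was found in 42.1% of all Z genes and in 247 of the 450 above background on all arrays. In either direction, such separation was found in 0.85% of autosomal genes and 0 of the 52 autosomal members. Males averaged 13.03 ± 0.06 and females 12.82 ± 0.05 (SD, n = 5 per sex). The difference was 0.22 (SE 0.05, limma adjusted p = 0.131), a male to female ratio of 1.16 with a 95% interval of 1.07 to 1.27.

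At their brightest probe sets, the Z-linked semaphorin genes had larger and less regular differences. SEMA4D encodes a membrane semaphorin that signals through B-type plexins. Its male arrays read 10.95, 10.65, 11.02, 10.88 and 10.53, and its female arrays 10.42, 10.49, 10.58, 10.43 and 10.36. Male replicate 5 alone lay within the female range, and the difference was 0.35 (SE 0.10, limma adjusted p = 0.246), a ratio of 1.28. The 95% interval of the log2 difference was 0.12 to 0.58.

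SEMA6A encodes a transmembrane semaphorin that binds the plexins PlexinA2 and PlexinA4 and guides axons and migrating granule cells in the mouse. Its male arrays read 11.95, 12.28, 12.45, 12.30 and 12.01, and its female arrays 11.77, 12.06, 11.91, 11.78 and 11.20. Female replicate 5 stood below the rest, and 3 of 5 males exceeded all females. The difference was 0.45 (SE 0.17, limma adjusted p = 0.484), a ratio of 1.37 with an interval of 1.06 to 1.77. Without female replicate 5 the difference was 0.32 (limma adjusted p = 0.432).

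**Figure D2:**
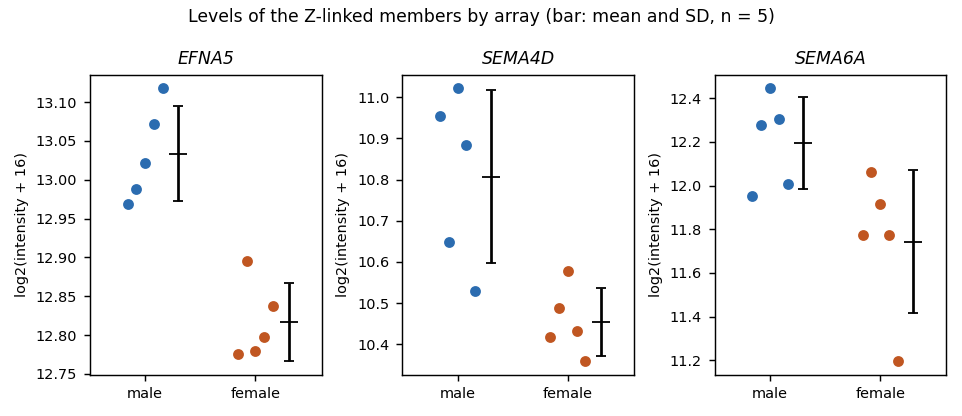
Level of EFNA5, SEMA4D and SEMA6A on each array in log2(intensity + 16), with points in replicate order from left to right, an order that carries no meaning, and the mean and SD of each sex (n = 5). The sexes do not overlap for EFNA5, overlap by 1 male array for SEMA4D, and overlap for SEMA6A, where female replicate 5 is lowest at 11.20.

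The values above come from the brightest probe set of each gene, and the Z members had 10 probe sets in all. The 4 probe sets of SEMA6A were above background on all arrays and differed by 0.45, 0.41, 0.43 and 0.83 (SE 0.17, 0.18, 0.11 and 0.19). In both of the dimmer ones every male array exceeded every female array. Among Z genes above background on all arrays, each read by its brightest probe set, 247 of 450 had this order. The share over all Z probe sets was not counted. Limma adjusted p over all probe sets was 0.128 for the dimmest and 0.211 for the next. The dimmest was also the only SEMA6A probe set whose identifier does not end in x_at, s_at or a_at. All 3 endings were treated here as prone to cross-hybridisation, and whether these probe sets cross-hybridise was not tested.

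EFNA5 had 5 probe sets, of which only the brightest was above background on all arrays. In the fit over all probe sets the brightest had an SE of 0.07 and a limma adjusted p of 0.475. The other EFNA5 probe sets differed by 0.75 (SE 0.36), -0.23 (SE 0.22), 0.36 (SE 0.28) and 0.02 (SE 0.51). The regular male excess of EFNA5 thus rests on 1 probe set. SEMA4D had 1 probe set. Of the 142 probe sets of all members, 0 passed the limma threshold, where 0.799% of all 38439 probe sets passed. An unadjusted p under 0.05 was reached by 10, against 6.85% of all probe sets, and 6 of these 10 belong to the Z members.

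**Figure D3:**
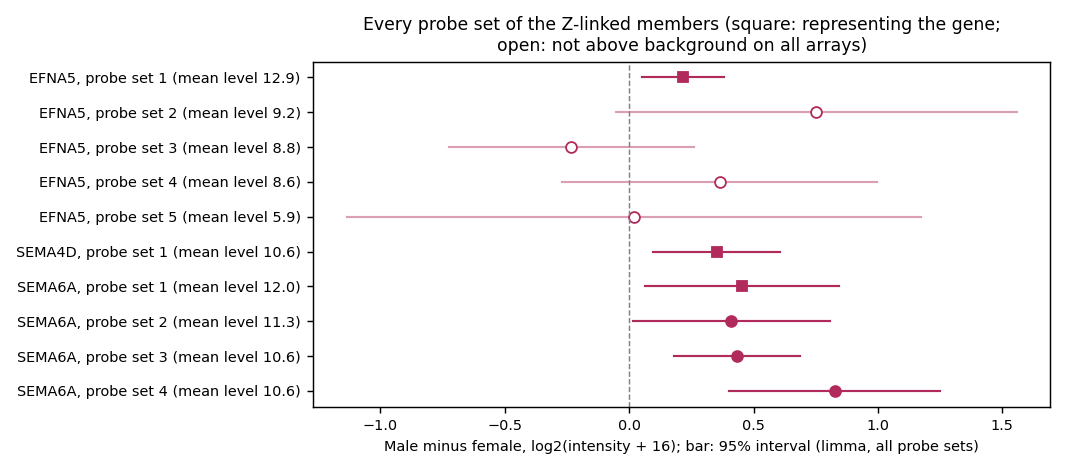
Male minus female difference in log2(intensity + 16) for every probe set of the 3 Z-linked genes, ordered by level within a gene, with 95% intervals from the limma fit over all probe sets (5 arrays per sex). All 4 SEMA6A probe sets lie above 0, and the 4 dim EFNA5 probe sets (open circles) have intervals that include 0.

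The male excess varied along Z, and the 3 genes were set against their 10 nearest Z genes above background on all arrays, 5 on either side in gene order. This comparison was chosen after the values were seen and is given as a description, with no test. SEMA4D had a smaller male excess than all 10 of its neighbours. Next to it, SECISBP2, a gene of selenoprotein synthesis, differed by 0.83 (SE 0.09) and GADD45G, a stress response gene, by 0.93 (SE 0.11). The neighbours had a median of 0.77 and ran from 0.40 to 1.03, and 8 of 10 passed the limma threshold in the male direction. The level of SEMA4D minus the median of its neighbours, each centred on its own mean, averaged -0.16 ± 0.20 for the males and 0.17 ± 0.09 for the females (SD, n = 5 per sex). The gap between the sexes was -0.33, and it was -0.53 with the 4 nearest and -0.31 with the 20 nearest genes. Of the 20 nearest, 18 had a larger male excess than SEMA4D, and the lowest differed by -0.006.

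EFNA5 lay among genes with a modest male excess. Its neighbours had a median of 0.36 and ran from 0.15 for FBXL17 to 1.08 for FAM174A, 9 of 10 were larger and 3 passed. The level of EFNA5 minus their median averaged -0.09 ± 0.12 for the males and 0.07 ± 0.09 for the females (SD, n = 5 per sex). The gap was -0.16, and it was -0.11 with the 4 nearest and -0.18 with the 20 nearest.

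SEMA6A had neighbours with a median of 0.63, of which 6 of 10 were larger and 5 passed. The level of SEMA6A minus their median averaged -0.07 ± 0.28 for the males and 0.09 ± 0.38 for the females (SD, n = 5 per sex). The gap was -0.16, which was -0.29 with the 4 nearest and -0.09 with the 20 nearest. Among the 450 Z genes above background on all arrays, 103 had a smaller difference than EFNA5, 173 than SEMA4D and 225 than SEMA6A. These comparisons use the brightest probe set of each gene. The SEMA6A probe set not treated as prone to cross-hybridisation differed by 0.83. The neighbours' median of 0.63 comes from their brightest probe sets, prone or not, so these values are not like for like.

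**Figure D4:**
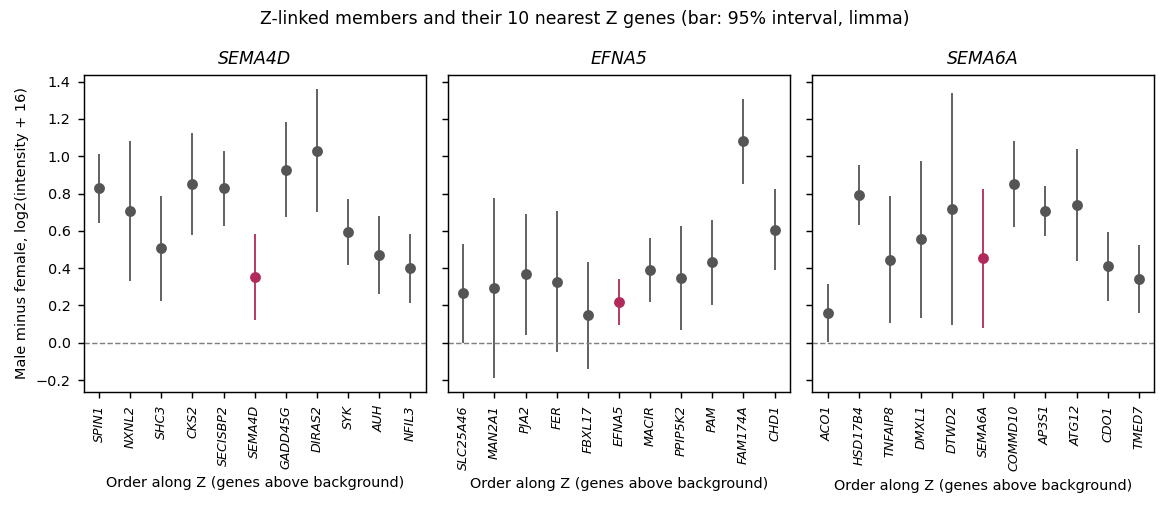
Male minus female difference in log2(intensity + 16) of SEMA4D, EFNA5 and SEMA6A (red) and of the 10 nearest Z genes above background, in gene order, with 95% limma intervals (5 arrays per sex). SEMA4D at 0.35 sits under all of its neighbours, which run from 0.40 to 1.03.

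The receptor genes examined as partners of the Z-linked ligands lie on autosomes. None was called, where 0.147% of all autosomal genes were. Of the receptors that bind ephrin-A5, EPHA3 differed by -0.03 (95% interval -0.22 to 0.15), EPHA4 by 0.10 (-0.05 to 0.25), EPHA5 by 0.14 (-0.11 to 0.39), EPHA7 by 0.01 (-0.13 to 0.15) and EPHB2 by 0.12 (-0.02 to 0.26). For SEMA6A, the receptor gene PLXNA2 differed by 0.00 (-0.28 to 0.28) and PLXNA4 by -0.04 (-0.21 to 0.12). For SEMA4D, B-type plexin genes were read by class alone, PLXNB2 at 0.07 (-0.12 to 0.25) and PLXNB3 at -0.10 (-0.25 to 0.04). Whether SEMA4D binds each of them was not tested. All 9 of these receptors were above background on every array, and each interval, for the brightest probe set, stayed inside a 1.5-fold change either way. A dimmer EPHB2 probe set, also above background on all arrays, differed by -0.46, with an interval of -1.22 to 0.29. Of the remaining EphA receptor genes, whose binding of ephrin-A5 was not examined, EPHA6 differed by 0.01 (-0.16 to 0.18). EPHA1, EPHA2 and EPHA10 were above background on 7, 1 and 0 arrays, and their intervals reached beyond 1.5-fold both ways. PLXNB1, another B-type plexin gene, was not among the members.

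Of 17 semaphorin genes 13 were above background on all arrays, 11 of them autosomal. Of these 11, 0 had an unadjusted p under 0.05, as did 379 of the 8927 autosomal genes above background on all arrays. A slightly lower male mean was found in 9 of the 11, and the median of the 11 was -0.04. A lower male mean was also found in 5060 of the 8927 autosomal genes above background on all arrays (median -0.02). SEMA4B, a membrane semaphorin gene, had the smallest error, at -0.02 (SE 0.05, limma adjusted p = 0.976). SEMA5A, a transmembrane semaphorin with thrombospondin repeats, differed by -0.09 (SE 0.06) and SEMA3A, the secreted repellent that collapses growth cones, by -0.04 (SE 0.12).

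SEMA3C, another secreted semaphorin, had the largest negative difference of the 11, -0.41 (SE 0.31, limma adjusted p = 0.864). Male replicate 3 read 8.79 while the other males read 10.07 to 10.60 and the females 10.26 to 10.61, and without it the difference was -0.10. SEMA3B, which was not above background on any array, differed by -1.19 (SE 0.43, limma adjusted p = 0.465), from 5.38 to 6.26 in males and 5.91 to 8.14 in females. At this level the size of the difference for SEMA3B is not measured. The median of the virus probe sets on each array, averaged by sex, differed by -0.18, and was lowest in male replicate 1 (5.41).

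Of the plexin and neuropilin genes 9 of 9 were above background on all arrays. An unadjusted p under 0.05 was reached by 0, against 379 of 8927 such autosomal genes. Their differences ran from -0.11 for NRP2 to 0.18 for PLXND1. PLXND1, a receptor for Sema3E in vessels and axons of the mouse, had male values of 13.28 to 13.41 and female values of 12.92 to 13.40 (SE 0.09, limma adjusted p = 0.711). The mean over its 2 probe sets gave -0.10, the opposite sign. NRP1, the co-receptor of SEMA3A, differed by 0.16 (SE 0.15) and its relative NRP2 by -0.11 (SE 0.09, adjusted p = 0.877). PLXNC1, a receptor for SEMA7A, was measured with the smallest error of the group, -0.08 (SE 0.06, adjusted p = 0.877).

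Among ephrins and Eph receptors the Z-linked EFNA5 was the member with non-overlapping sexes. EFNB1 and EFNB2, transmembrane ligands of EphB receptors, differed by -0.08 (SE 0.09) and -0.11 (SE 0.12). The EFNB2 difference was -0.03 without male replicate 5 and -0.01 without female replicate 3. EFNA2, another A-type ephrin on an autosome, had probe sets that disagreed. The brighter one was above background on 9 arrays and differed by 0.08 (SE 0.36). The other was above it on all 10 and differed by -0.70 (SE 0.20, limma adjusted p = 0.302 over all probe sets), with an unadjusted p under 0.05. Of 12 Eph receptor genes 9 were above background on all arrays, 5 with a higher and 4 with a lower male mean, from -0.14 for EPHB1 (SE 0.14, limma adjusted p = 0.903) to 0.14 for EPHA5 (SE 0.11, adjusted p = 0.875). This range is of the brightest probe sets. The second EPHB1 probe set, also above background on all arrays, differed by -0.54 (SE 0.26). The mean over probe sets gave -0.34 for EPHB1 and 0.09 for EPHA5. EPHA7 differed by 0.01 (SE 0.06, adjusted p = 0.989), and its 95% interval held the ratio between 0.91 and 1.11.

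Of the 3 Slit and 3 Robo genes 0 had an unadjusted p under 0.05, where 5.08% of all autosomal genes did. SLIT2 read 12.40 to 12.56 in males and 12.30 to 12.51 in females, a difference of 0.10 (SE 0.06, limma adjusted p = 0.827). ROBO2, a Slit receptor gene, differed by 0.08 (SE 0.06, adjusted p = 0.877), and by -0.01 as the mean over its 5 probe sets. SLIT3 differed by 0.27 (SE 0.16, adjusted p = 0.795), and by 0.17 without female replicate 1.

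SLIT1 had the widest spread of the 43 members above background on all arrays. It ran from 8.16 to 9.69 in males and from 8.69 to 10.68 in females, with a difference of -0.60 (SE 0.40, limma adjusted p = 0.837). The difference was -0.35 without male replicate 1, -0.36 without female replicate 3 and -0.26 as the mean over its probe sets, the second of which differed by 0.08. ROBO1 ran from 10.92 to 11.33 in males and from 10.40 in female replicate 5 to 11.73 in female replicate 3, and its difference of -0.07 (SE 0.22, adjusted p = 0.972) became 0.07 without female replicate 3. SLIT1 was also highest in female replicate 3. ROBO4, known from vessels, was above background on 2 arrays and differed by -0.87 (SE 0.91).

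None of the 4 netrin genes was above background on all arrays. NTN1 and NTN4L were above it on 9 arrays each, NTN3 on 8 and NTN4 on 4. The netrin differences ran from -0.69 for NTN3 (SE 0.40) to 0.31 for NTN1 (SE 0.25), the floor plate attractant in the spinal cord. The 3 UNC5 receptor genes were above background on all arrays. They had slightly lower male means, as did 5060 of 8927 such autosomal genes. UNC5B differed by -0.13 (SE 0.14, limma adjusted p = 0.909), UNC5D by -0.05 (SE 0.16) and UNC5C by -0.03 (SE 0.07, adjusted p = 0.972). SEMA3DL and NTN4L are named as relatives of SEMA3D and NTN4, and whether their probe sets also read the RNA of those genes was not tested. UNC50 differed by -0.02 (SE 0.06).

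**Figure D5:**
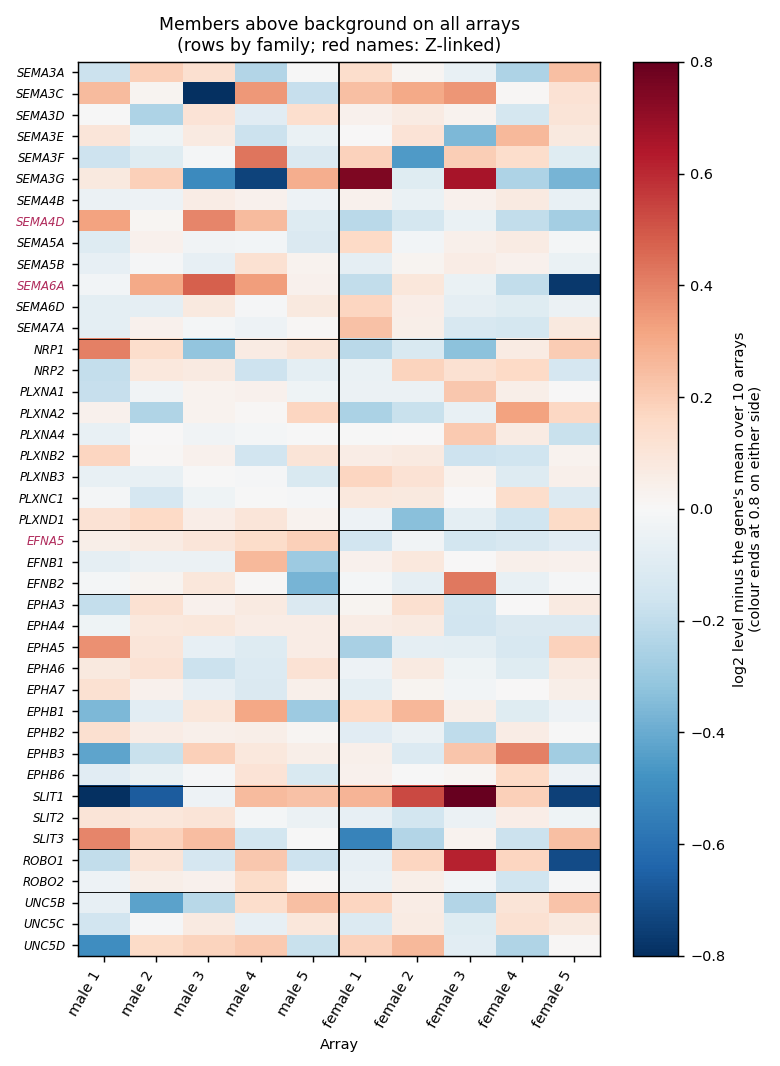
Level on each array minus the gene's mean over the 10 arrays, in log2 units, for the 42 guidance genes above background on all arrays, with families separated by lines and Z-linked genes named in red. EFNA5 is above its mean in all 5 males and below it in all 5 females, and SLIT1 and ROBO1 are high in female replicate 3.

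At the brightest probe set, the precision for most members above background on all arrays allowed only differences under 1.5-fold. Dimmer probe sets were not counted here. The 95% interval stayed inside a 1.5-fold change either way for 36 of the 40 autosomal members above background on all arrays (90%, against 84.9% of such autosomal genes). The other 4 were SEMA3C, SEMA3G, SLIT1 and SLIT3. The interval was as narrow for 2 of the 3 Z members, so this bound does not exclude differences of the size of theirs. For the 13 members not above background on all arrays, 0 intervals were that narrow.

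The gap between Z and autosomal members was above 0 in all 5 males and below 0 in all 5 females. The median of the Z members minus that of the autosomal members, each gene centred on its mean, averaged 0.16 ± 0.15 for the males and -0.18 ± 0.10 for the females (SD, n = 5 per sex). Males ran from 0.03 to 0.40 and females from -0.28 to -0.07. The same measure over all Z and autosomal genes was 0.25 ± 0.02 and -0.24 ± 0.02. With 3 Z genes the first measure is close to the level of a single gene, and it is given without a test.

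Lists of other axon guidance genes, outside these families, were read in the same fit. Of 33 measured genes of co-receptors, adhesion molecules and other cues, 0 passed the limma threshold, against 1.79% of all genes (median -0.02). An unadjusted p under 0.05 was reached by 0 of the 33, against 7.62% of all genes. The Z-linked RGMB, a repulsive guidance molecule, differed by 0.10 (SE 0.06, limma adjusted p = 0.824). Of 52 intracellular effectors 1 was called, where 1.79% of all genes and 33.2% of Z genes (in the male direction) were, and the median was -0.03. An unadjusted p under 0.05 was reached by 2 of the 52, against 7.62% of all genes. The gene called was RASA1, a Ras regulator that EphB2 recruits, on Z: males read 12.39 to 12.79 and females 11.64 to 11.87, a ratio of 1.84 (log2 difference 0.88, SE 0.09, limma adjusted p = 0.000478). Without probe sets prone to cross-hybridisation its difference was 0.58 (limma adjusted p = 0.0352). The other effector with an unadjusted p under 0.05 was MYO10, an unplaced gene for a filopodial myosin, at -0.31 (SE 0.08, limma adjusted p = 0.104).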

How the data were processed

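Each deposited array column holds a linear intensity per probe set. How the authors summarised probes is not stated in the labels. The mean without the highest and lowest 2% was 2500.5 on each array, so scaling preceded deposit. Median intensity was 593.7 to 720.8 per array, and the number of arrays limits the precision.

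Of 38535 probe sets, 96 controls were left out. Symbols, chromosomes and gene order came from the assembly bGalGal1.mat.broiler.GRCg7b by gene identifier. Of 13051 genes 178 were not matched, ROBO4 among them, and they keep the platform's symbol. Probe sets with several genes named none. A gene's value is that of its brightest probe set over the 10 arrays.

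The model was a limma fit (version 3.58.1, R 4.3.3) of sex on log2(intensity + 16) over all genes, unfiltered, with Benjamini-Hochberg adjustment. The code was tested on simulated data. Named genes are the Z members, members called or without overlap, and per family the largest difference each way and the smallest error among genes above background. Other genes were added as binding partners or after their values were seen. Members and lists were chosen with earlier results of these data known. No reference sequence was used here.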

Additional observations from a re-analysis of the deposited data

Results flagged for a closer look

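Among the named genes and the Z minus autosomal measure, 44 groups of 5 arrays were searched for an array far from the other 4 (a gap to the nearest array above 0.71 of the range), and 3 groups had one. Chance gives about 5% of groups. EFNB2 read 11.03 in male replicate 5 against 11.39 to 11.49 in the other males, and 11.83 in female replicate 3 against 11.33 to 11.39 in the other females. PLXNC1 read 14.43 in male replicate 2 against 14.53 to 14.56 in the other males. The EFNB2 difference of -0.11 was -0.0273 without male replicate 5 and -0.014 without female replicate 3. Both genes missed the threshold with and without each array.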

How the results depend on the processing

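Under each of 21 alternatives 0 members passed the threshold in either direction, and SEMA4D, EFNA5 and SEMA6A kept a positive difference. Leaving out 1 array at a time gave 0.30 to 0.42 for SEMA4D, 0.20 to 0.24 for EFNA5 and 0.32 to 0.53 for SEMA6A. Over the alternatives, the lowest limma adjusted p was 0.0809, 0.0903 and 0.0775, and the highest was 0.581, 0.881 and 0.682. The 0.0809 of SEMA4D came without male replicate 5, the male within the female range. SEMA6A differed by 0.83 without probe sets prone to cross-hybridisation, which changes the probe set used. Centring on autosomal genes moved the median of autosomal members to -0.00696, UNC5C to 0.0003 and SEMA4B to 0.0116. The mean over probe sets turned PLXND1 (-0.0952), ROBO2 (-0.00901) and ROBO1 (0.0698). Leaving out 1 array gave -0.057 to 0.00768 for UNC5C, -0.024 to 0.037 for EPHA7, -0.262 to 0.072 for ROBO1 and -0.032 to 0.000734 for SEMA4B. In a fit with the replicate block, on the 8 arrays with letters B to E in their titles, EPHA7 was -0.0415, SEMA4B 0.00153 and RASA1 0.873 (limma adjusted p = 0.107). Whether the letters pair arrays is not stated in the labels. Same-lettered arrays correlated by -0.033 to 0.085 across genes, each centred within its sex, which cannot decide it. The cause of these changes was not tested. Dim genes are limited by background.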
